A study of Mus musculus with 55 samples.

Results

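The genes described here are 9 core components of the machinery that moves the oocyte into, through and out of its meiotic divisions: *Mos*, *Ccnb1*, *Ccnb2*, *Ccnb3*, *Cdk1*, *Cdc20*, *Fzr1*, *Fbxo43* and *Plk1*. They were listed by name, with no threshold on their levels or changes, and all 9 were present in the count files of the oocytes, among 51734 annotated genes. Each library was made from a single oocyte. The series holds 42 fully grown oocytes (FGOs), the stage at which growth has ended and the oocyte is still arrested in prophase of meiosis I, and 10 oocytes in metaphase of meiosis II (MII), the arrest that lasts until fertilisation. Of the FGOs, taken from females of 10 to 12 weeks, 18 were wild type, 8 were homozygous for the *Dnmt3L* ADD allele, 8 for the *Dnmt3a* ADD allele and 8 for both, and the MII oocytes were wild type and came from hormone-treated females. The ADD domain reads unmodified lysine 4 of histone H3. The *Dnmt3L* ADD allele carries D124A, the *Dnmt3a* ADD allele carries D525A and D527A together, and the double mutant carries all of them. The alleles are germline changes made by CRISPR/Cas9 that every cell of the mouse carries, bred on a C57BL/6J background, and the wild-type groups carry none of them.

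Maturation-promoting factor (MPF) is the kinase CDK1 bound to a B-type cyclin, and its activity drives the oocyte out of prophase arrest. The anaphase-promoting complex (APC/C), a ubiquitin ligase, destroys B-type cyclins. CDH1, encoded by *Fzr1*, activates the APC/C during prophase arrest, and CDC20 activates it at anaphase. At metaphase II the MOS kinase, which starts a MAP kinase cascade, and EMI2, encoded by *Fbxo43*, hold the APC/C in check. Transcription falls silent around the end of oocyte growth. Many of these messages are stored and translated only after their poly(A) tails are lengthened in the cytoplasm.

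All comparisons rested on read counts, with a total of 7832458 to 23739871 counts per library, and the lowest count of any of the 9 genes in any library was 444 (*Cdc20*). Values are given as CPM, the counts of a gene scaled to a common library total after correction by TMM factors. They are shares of a library, since no spike-in was used here. The libraries were primed on poly(A) tails, and therefore the amount of a message and the length of its tail cannot be told apart. The labels do not say which oocytes came from the same female, so the p-values measure the spread between these libraries. The oocyte identity of the libraries was visible in 14 oocyte marker genes, none of which was at 0 in any group, with a summed level of 8910 to 15500 CPM. The oocyte marker sum was 9550 to 14900 CPM in wild-type FGOs, 9600 to 12300 in *Dnmt3L* ADD/ADD, 8910 to 11400 in *Dnmt3a* ADD/ADD, 13500 to 15500 in the double mutant and 10000 to 10700 in MII oocytes. Against the wild type 7, 8 and 7 of these 14 genes were lower and 0 higher in the *Dnmt3L* mutant, the *Dnmt3a* mutant and MII oocytes, and 3 were higher and 0 lower in the double mutant. The sum of 16 granulosa and cumulus cell markers was 133 to 276 CPM in wild-type FGOs, 130 to 156 CPM in the double mutant and 115 to 141 CPM in MII oocytes. In the single mutants it was 121 to 167 CPM in *Dnmt3L* ADD/ADD and 125 to 213 CPM in *Dnmt3a* ADD/ADD FGOs. Of the 14 markers tested, 10 were lower in MII oocytes and 1 higher (median log2 change -3.45). In the double mutant 8 were lower and 1 higher (median -1.69). In the *Dnmt3L* mutant 3 were lower and 0 higher (median -0.54), and in the *Dnmt3a* mutant 4 were lower and 1 higher (median -0.33). *Amh* was at 0 in MII oocytes, *Ptx3* in the FGO groups and *Tnfaip6* in *Dnmt3a* ADD/ADD FGOs. The part of these markers in the changes of the 9 genes was not tested.

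A difference between libraries cut across the genotypes. The study's sequencing record gives for each library the share of reads that mapped, and the libraries fall into those with at least 80% mapped reads and those below. Of the wild-type FGOs 10 had at least 80% and 8 had less, while all 8 *Dnmt3L* ADD/ADD FGOs had at least 80% and all 8 double mutant FGOs had less. The *Dnmt3a* ADD/ADD FGOs were split into 5 and 3, and the MII oocytes into 7 and 3. Moreover, 4 libraries stood apart from the rest of their own group over 8234 genes outside the gene lists used here: wild-type FGO replicates 4, 5 and 6 and double mutant FGO replicate 4 had a median correlation with their group of 0.940 to 0.955, compared with 0.970 to 0.988 for the other 48. Results that rest on either difference are given with and without it.

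In wild-type FGOs, *Mos* was the most abundant of the 9 messages per length, and *Cdk1*, the catalytic partner of the B-type cyclins, was the least. Levels of different genes were compared only per kilobase of annotated exon. *Mos* had 164 ± 19.6 CPM per kilobase (SD, n = 18) and ranked 176 of the 15784 genes tested. *Plk1*, a mitotic and meiotic kinase that helps to activate MPF and prepares EMI2 for degradation, had 115 ± 13.9 CPM per kilobase, and *Ccnb1*, encoding cyclin B1, had 85.2 ± 9.64. *Ccnb2* and *Fbxo43* lay next to each other with means of 52.6 CPM per kilobase each. *Fzr1* followed at 33.0 ± 3.37, *Cdc20* at 28.8 ± 4.97, *Ccnb3* at 21.8 ± 4.71 and *Cdk1* at 17.6 ± 1.76 CPM per kilobase, rank 3280. The 9 genes thus all lay in the upper 20.8% of the genes tested. The per-length values depend on the annotated exons, which for *Ccnb1* add up to 4217 bases compared with 2489 bases in the transcript from which its 3′ end was taken.

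**Figure D1:**
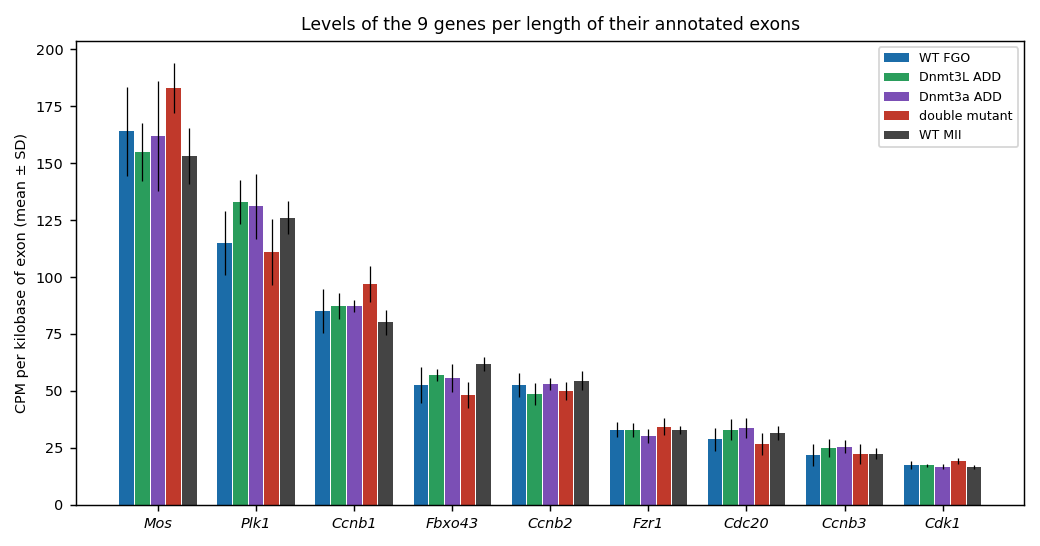
Level per length of the 9 genes in each group of oocytes, in CPM per kilobase of annotated exon, as the mean (bar) with its SD (line) over the 18 wild-type FGOs, 8 FGOs of each mutant genotype and 10 MII oocytes. In wild-type FGOs *Mos* was at 164 and *Cdk1* at 17.6 CPM per kilobase, and the genes are ordered by that level.

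Because the libraries were primed on poly(A) tails, the last part of each message is shown, as 30 bases of the sense strand of the 3′ UTR. The bases come from GENCODE transcript sequences, with an annotated transcript chosen for each gene and positions on GRCm38. Capitals mark the poly(A) signal letters AATAAA or ATTAAA and the letters TTTTAT or TTTTAAT of the cytoplasmic polyadenylation element (CPE), through which the protein CPEB lengthens tails during maturation. Each stretch but the second of *Ccnb3* ends at the last poly(A) signal.
Mos, chr4:3870673-3870702, minus strand: taccactagggcatatttttaggaAATAAA
Ccnb1, chr13:100778668-100778697, minus strand: gcaatatggagactttatgttgctAATAAA
Ccnb2, chr9:70407705-70407734, minus strand: taactctgctctgtattgaaggaaAATAAA
Ccnb3, chrX:6979666-6979695, minus strand: ttgttatatttgtttaaaaaatttAATAAA
Ccnb3, chrX:6979698-6979727, minus strand, the CPE letters before it: gaaattacTTTTATgaaagaagagaaattg
Cdk1, chr10:69335168-69335197, minus strand: aatttaatgtgcctaatggcacggAATAAA
Cdc20, chr4:118432917-118432946, minus strand: tcttgtTTTTATTTTATtttttctAATAAA
Fbxo43, chr15:36150080-36150109, minus strand: aagtggttaaaATTAAAactaataATTAAA
Plk1, chr7:122169831-122169860, plus strand: tgctctttccttagctttatatatATTAAA

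*Cdc20* had the shortest 3′ UTR of the set, 62 bases, with 2 overlapping CPE matches that start 18 and 13 bases before its poly(A) signal. In *Ccnb3* 1 match lay 48 bases before the signal. In the last 100 bases of the other 7 messages these letters were not found, although the whole 3′ UTR held 6 matches in *Fbxo43* (1584 bases), 4 in *Ccnb1* (1028 bases), 2 in *Cdk1* (3352 bases) and 1 in *Ccnb2* (227 bases). *Mos* (126 bases), *Plk1* (283 bases) and *Fzr1* (1287 bases) held none of these exact letters, and *Fzr1* also had neither poly(A) signal in its last 100 bases. Of 19351 genes with a 3′ UTR of at least 100 bases, 17.9% had CPE letters in the last 100 bases and 78.6% had a poly(A) signal there. In the last 62 bases, the window that *Cdc20* fills, the shares were 12.0% and 76.6% of 20026 genes. A match of letters is a description of the sequence and not evidence of binding.

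The ratio of the highest to the lowest of the 52 libraries ran from 1.48 for *Ccnb2* to 2.78 for *Ccnb3*, and the ratio of the highest to the lowest group mean from 1.12 for *Ccnb2* to 1.28 for *Fbxo43*. In wild-type FGOs the coefficient of variation was 21.6% for *Ccnb3* and 17.2% for *Cdc20*, and between 9.8% and 14.7% for the other 7, compared with a median of 11.8% over the 4269 genes with at least 50 CPM, so that 5 of the 9 genes lay above that median. When the 4 genotypes of FGOs were put in the order of their mean level for each gene, none of the 27 pairs of neighbours in that order differed past an adjusted p of 0.05 (edgeR's quasi-likelihood test with Benjamini-Hochberg adjustment), and the lowest adjusted p was 0.0691, for *Plk1*. Neighbours in such an order have the smallest gaps by construction, and groups further apart in it are compared below.

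**Figure D2:**
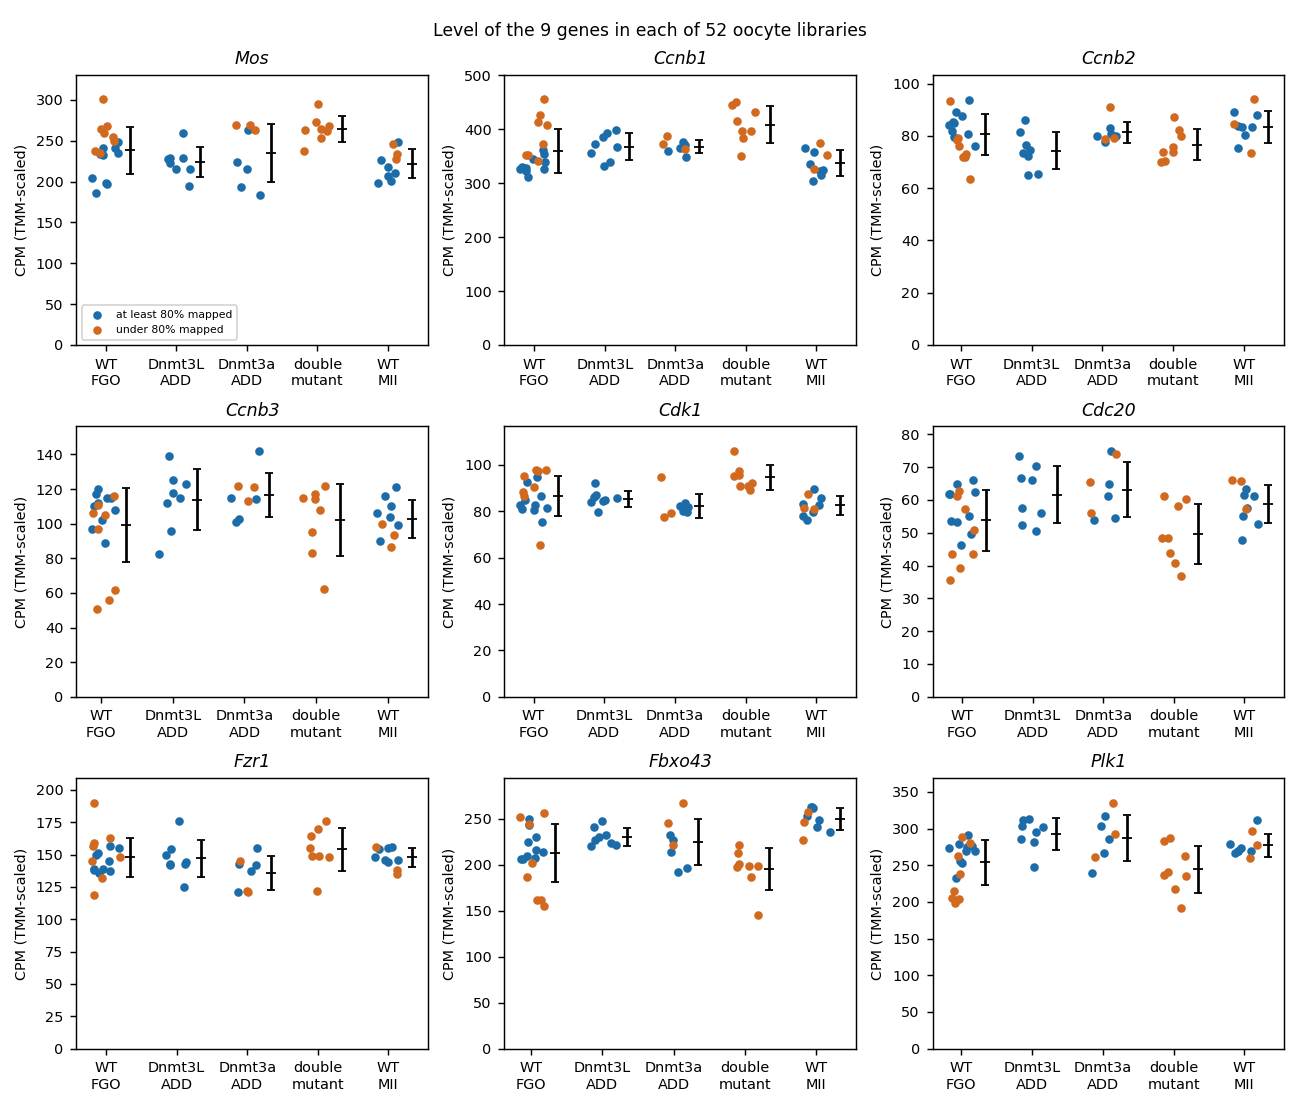
Level of each of the 9 genes in every oocyte library, in CPM, with each point 1 oocyte, for 10 MII oocytes and for FGOs of the wild type (18) and of each of the 3 mutant genotypes (8 each). Point colours give the class of mapped reads and bars the mean with its SD. Each group overlaps the wild-type FGOs for every gene, and the low points of *Ccnb3*, *Fbxo43* and *Plk1* in wild-type and double mutant FGOs are the 4 libraries that stood apart.

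The first comparison was between MII oocytes and wild-type FGOs, which lie after and before the first meiotic division, respectively. These groups also differed in the hormone treatment of the females. By the paper's methods the age range of the females also reached higher for MII oocytes than for FGOs. Stage, treatment and age cannot be told apart. Among the 9 genes only *Fbxo43*, which encodes the APC/C inhibitor EMI2, rose, and the change was small. Its level in the 18 wild-type FGOs ran from 155 to 256 CPM with a median of 211, and in the 10 MII oocytes from 227 to 263 CPM with a median of 250. The ranges overlapped, with all 10 MII oocytes above the median and 4 above the highest of the FGOs. The mean was 249 ± 12.3 CPM in MII oocytes (SD, n = 10) and 212 ± 31.3 CPM in FGOs (SD, n = 18), a 1.17-fold difference (log2 fold change 0.23 ± 0.06 SE, adjusted p = 0.00315, edgeR). Thus 1 of 9 genes passed the adjusted p, compared with 39.1% of all genes tested, and 0 of 9 passed the 2-fold threshold in addition, compared with 9.2% of all genes. The median size of the log2 change, up or down, was 0.09 over the 9 genes and 0.22 over all genes.

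The rise of *Fbxo43* was seen with at least 80% mapped reads in both groups (log2 fold change 0.20, adjusted p = 0.00125, edgeR) and without the libraries that stood apart (0.16, adjusted p = 0.00663). With under 80% mapped reads in both groups, where 3 MII oocytes remain, the log2 fold change was 0.28 and the adjusted p was 0.166.

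The remaining genes of MPF and of its activation did not pass the test from FGO to MII. *Mos*, which is required to hold the MII arrest, ran from 186 to 301 CPM with a median of 239 in FGOs and from 198 to 248 CPM with a median of 222 in MII oocytes. The range of the MII oocytes lay inside that of the FGOs, and the log2 fold change was -0.11 ± 0.06 (adjusted p = 0.163, edgeR). *Ccnb1* ran from 312 to 456 CPM with a median of 349 in FGOs and from 304 to 375 CPM with a median of 330 in MII oocytes. These groups overlapped as well, with a log2 fold change of -0.09 ± 0.05 (adjusted p = 0.138, edgeR). *Ccnb2*, encoding the other B-type cyclin that can pair with CDK1 in prophase, was at 80.6 ± 7.90 CPM in FGOs and 83.5 ± 6.25 CPM in MII oocytes (SD, n = 18 and 10). *Ccnb3*, whose cyclin is needed for the first anaphase, was at 99.4 ± 21.5 and 103 ± 11.1 CPM, and *Cdk1* was at 86.8 ± 8.67 and 82.6 ± 4.21 CPM. For *Cdk1* the 95% interval of the log2 difference ran from -0.16 to 0.02, for *Ccnb2* from -0.05 to 0.15 and for *Ccnb3* from -0.16 to 0.25, so a 2-fold difference lay outside each of them.

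The activators of the APC/C did not pass the test either. *Cdc20* ran from 35.5 to 66.2 CPM with a median of 54.3 in FGOs and from 47.9 to 66.1 CPM with a median of 59.3 in MII oocytes, and the MII range lay within that of the FGOs. *Fzr1* had the same mean, 148 CPM, at both stages, with a 95% interval of the log2 difference from -0.11 to 0.10. *Plk1* was at 254 ± 30.6 CPM in FGOs and 278 ± 15.8 CPM in MII oocytes (log2 fold change 0.13 ± 0.06, adjusted p = 0.0795, edgeR). Its value depended on single libraries: without wild-type FGO replicate 3, 9, 10, 11, 12, 13 or 16 the adjusted p was 0.0348 to 0.0493. The change in *Plk1* was 0.07 on the log2 scale without the libraries that stood apart (adjusted p = 0.286, edgeR).

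**Figure D3:**
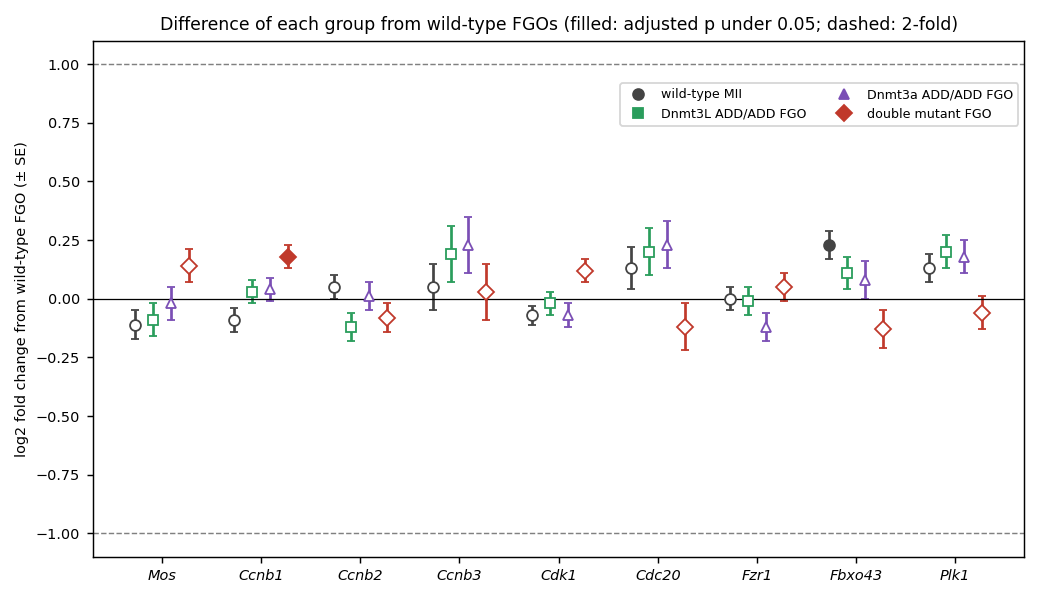
log2 fold change of each of the 9 genes in MII oocytes and in each mutant FGO group against the 18 wild-type FGOs. Bars give the SE from edgeR and not a 95% interval. *Fbxo43* in MII oocytes (0.23) and *Ccnb1* in the double mutant (0.18) passed an adjusted p of 0.05, and every estimate lay between -0.13 and 0.23.

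The mutant FGOs address whether the ADD domains of DNMT3A and DNMT3L bear on the store of messages with which the oocyte enters meiosis. The 3 mutant groups and the MII oocytes were all compared with the same 18 wild-type FGOs, so these comparisons are not independent of each other. In *Dnmt3L* ADD/ADD FGOs 0 of the 9 genes passed the adjusted p with edgeR, compared with 6.13% of all genes, and 0 passed the 2-fold threshold as well (0.655% of all genes). DESeq2 gave 0 of 9 as well, and 2 genes, *Ccnb2* and *Plk1*, had an unadjusted p under 0.05 with edgeR. In *Dnmt3a* ADD/ADD FGOs the counts were again 0 of 9, compared with 15.7% of all genes, and 0 past 2-fold (2.05%), with 0 by DESeq2 and 2 genes, *Cdc20* and *Plk1*, at an unadjusted p under 0.05. In double mutant FGOs 1 of 9 passed, compared with 12.2%, and 0 past 2-fold (1.65%). This comparison depended on the class of mapped reads both for the 9 genes and for all genes. Against wild-type FGOs of at least 80% mapped reads 5 of 9 passed, with 3134 of all genes higher and 2665 lower, and against those under 80% 0 of 9 passed, with 69 higher and 148 lower. The median of the 9 log2 changes was 0.03 in *Dnmt3L* ADD/ADD FGOs (-0.03 over all genes), 0.04 in *Dnmt3a* ADD/ADD FGOs (-0.03) and 0.03 in the double mutant (-0.01).

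*Ccnb1* was the gene that passed in the double mutant. Its level ran from 312 to 456 CPM with a median of 349 in the 18 wild-type FGOs and from 351 to 450 CPM with a median of 406 in the 8 double mutant FGOs. All 8 lay above the wild-type median and within the wild-type range, and the means were 409 ± 33.7 and 359 ± 40.7 CPM (SD, n = 8 and 18). The log2 fold change was 0.18 ± 0.05, or 1.13-fold (adjusted p = 0.0257, edgeR). This rise moved with the share of mapped reads. Against the wild-type FGOs that, like all double mutant FGOs, had under 80% mapped reads the log2 fold change was 0.06 (adjusted p = 0.754), and against those with at least 80% it was 0.29 (adjusted p = 2.55e-06). Without double mutant replicate 2 or 8 the adjusted p was 0.0638 or 0.0655, with a log2 fold change of 0.16 in each, and without the libraries that stood apart it was 0.00746 (log2 fold change 0.21).

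*Ccnb1* had means of 368 CPM in both single mutants, and those groups overlapped the wild type. It differed from the wild type by 0.03 ± 0.05 on the log2 scale in *Dnmt3L* ADD/ADD (adjusted p = 0.753) and by 0.04 ± 0.05 in *Dnmt3a* ADD/ADD FGOs (adjusted p = 0.686, edgeR). When *Dnmt3L* ADD/ADD FGOs were compared only with wild-type FGOs of at least 80% mapped reads, *Ccnb1* had a log2 fold change of 0.14 (adjusted p = 0.0271) and *Ccnb2* of -0.18 (adjusted p = 0.029). In that comparison 2 of 9 genes therefore passed. Over all genes 682 were higher and 536 lower with both groups limited to at least 80%. With only the wild type limited, 607 were higher and 444 lower.

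For the other subunits of MPF and for *Mos* no mutant passed the test. *Mos* ran from 195 to 260 CPM with a median of 226 in *Dnmt3L* ADD/ADD, from 184 to 269 CPM with a median of 244 in *Dnmt3a* ADD/ADD, and from 238 to 295 CPM with a median of 264 in double mutant FGOs. The double mutant had the highest mean, 265 ± 16.1 CPM (SD, n = 8), and all 4 genotypes overlapped (log2 fold change against wild type 0.14 ± 0.07, adjusted p = 0.146, edgeR). *Cdk1* was at 85.5 ± 3.41, 82.3 ± 5.31 and 94.7 ± 5.51 CPM in the same order of mutants, again with its highest mean in the double mutant (0.12 ± 0.05, adjusted p = 0.109). *Ccnb2* was at 74.4 ± 7.24, 81.4 ± 4.14 and 76.7 ± 5.99 CPM. *Ccnb3* was at 114 ± 17.6, 116 ± 12.7 and 102 ± 20.6 CPM, and its largest log2 difference from the wild type was 0.23 ± 0.12 in *Dnmt3a* ADD/ADD FGOs (adjusted p = 0.193). Without the libraries that stood apart, the latter was 0.11 (adjusted p = 0.341).

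For *Plk1*, *Cdc20* and *Fbxo43*, the means of the single mutants and of the double mutant lay on opposite sides of the mean of all wild-type FGOs. None of these differences from the wild type passed the test. *Plk1* ran from 247 to 313 CPM with a median of 298 in *Dnmt3L* ADD/ADD, from 239 to 335 CPM with a median of 289 in *Dnmt3a* ADD/ADD and from 192 to 287 CPM with a median of 239 in double mutant FGOs, compared with 198 to 291 CPM and a median of 266 in the wild type. All these ranges overlapped. The log2 fold changes were 0.20 ± 0.07 (adjusted p = 0.0704), 0.18 ± 0.07 (adjusted p = 0.0691) and -0.06 ± 0.07 (adjusted p = 0.589). *Cdc20* had mean levels of 61.6 ± 8.54, 63.1 ± 8.27 and 49.7 ± 9.22 CPM, with log2 fold changes of 0.20 ± 0.10, 0.23 ± 0.10 and -0.12 ± 0.10. *Fbxo43* was at 230 ± 9.90, 224 ± 24.6 and 195 ± 22.7 CPM. *Fzr1* ran in the other direction in *Dnmt3a* ADD/ADD FGOs, at 136 ± 13 CPM (-0.12 ± 0.06, adjusted p = 0.164, edgeR), and was at 147 ± 14.4 and 154 ± 16.8 CPM in the *Dnmt3L* ADD/ADD and double mutant FGOs.

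The double mutant was also compared with each single mutant directly. Against *Dnmt3a* ADD/ADD FGOs, 3 of 9 genes passed the adjusted p, compared with 30.9% of all genes, and 0 passed 2-fold in addition (5.86% of all genes). *Cdc20* was lower, at 36.9 to 61.1 CPM with a median of 48.3 in the double mutant and 53.9 to 74.9 CPM with a median of 63.1 in the single mutant. The ranges overlapped, with 5 of 8 double mutant FGOs below all *Dnmt3a* ADD/ADD FGOs, and the log2 fold change was -0.36 ± 0.12 (adjusted p = 0.0182, edgeR). *Plk1* was lower as well, by -0.24 ± 0.08 on the log2 scale (adjusted p = 0.0226), with 4 of 8 below the lowest of the single mutant. *Cdk1* was higher, at 89.2 to 106 CPM with a median of 93.7 compared with 77.7 to 94.6 CPM and a median of 81.1 (0.19 ± 0.06, adjusted p = 0.013). All 8 double mutant FGOs lay above the single mutant's median for *Cdk1* and 4 above its highest value.

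Against *Dnmt3L* ADD/ADD FGOs, 4 of 9 genes passed, compared with 24.2% of all genes, and 0 passed 2-fold in addition (4.03%). *Mos* was higher by 0.23 ± 0.08 on the log2 scale (adjusted p = 0.0299), with 6 of 8 double mutant FGOs above the highest *Dnmt3L* ADD/ADD FGO. *Fbxo43* was lower, at 145 to 221 CPM with a median of 198 compared with 220 to 247 CPM and a median of 228, so that 7 of 8 lay below the whole single mutant group (-0.25 ± 0.09, adjusted p = 0.0383). *Plk1* and *Cdc20* were lower too, with log2 fold changes of -0.27 ± 0.08 (adjusted p = 0.0183) and -0.32 ± 0.12 (adjusted p = 0.042, edgeR). Between the single mutants 0 of 9 genes passed with edgeR, compared with 0.0127% of all genes, and 0 genes of any kind passed 2-fold. The number of the 9 with an unadjusted p under 0.05 was 0 there, as was the number past the adjusted p with DESeq2.

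Whether these differences between mutants passed the test depended on the share of mapped reads and on single libraries. All *Dnmt3L* ADD/ADD FGOs had at least 80% mapped reads and no double mutant FGO did, so genotype and library class cannot be told apart by a comparison within a class, and with class as a term of the model 0 of the 4 genes passed, with *Mos* at -0.01 (adjusted p = 0.959). Within libraries of under 80% mapped reads, where 3 *Dnmt3a* ADD/ADD FGOs remain, the double mutant differed from them by -0.41 for *Cdc20* (adjusted p = 0.112), -0.30 for *Plk1* (adjusted p = 0.123) and 0.16 for *Cdk1* (adjusted p = 0.294). These are log2 values of like size to those over all libraries. Double mutant replicate 4, which stood apart, bore on both counts. Without it *Cdc20* and *Plk1* did not pass against *Dnmt3a* ADD/ADD FGOs (log2 fold change -0.29 and -0.19, adjusted p = 0.0594 and 0.0808), nor did *Mos*, *Cdc20*, *Fbxo43* and *Plk1* against *Dnmt3L* ADD/ADD FGOs (log2 fold change 0.22, -0.26, -0.19 and -0.21, adjusted p = 0.0628, 0.115, 0.121 and 0.0589). The signs were those over all libraries. Against *Dnmt3a* ADD/ADD, *Cdc20* was also lost without *Dnmt3a* ADD/ADD replicate 3 (adjusted p = 0.0516) or double mutant replicate 8 (0.0506), and *Plk1* without *Dnmt3a* ADD/ADD replicate 2 or 3 (0.0708 and 0.0583) or double mutant replicate 7 (0.0626). Against *Dnmt3L* ADD/ADD, leaving out 1 library left 1 to 4 genes past the threshold, and 1 or 2 without *Dnmt3L* ADD/ADD replicate 3, 4, 6 or 7 or double mutant replicate 3, 4, 5, 7 or 8. The counts fell less when all 4 libraries that stood apart were left out, double mutant replicate 4 among them. In that setting 4 genes of the set passed against *Dnmt3a* ADD/ADD FGOs, beside 3 over all libraries. Against *Dnmt3L* ADD/ADD FGOs 3 passed, beside 4 over all libraries.

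The same contrast can be put as a non-additive effect, the log2 change of the double mutant beyond the sum of the changes of the single mutants. It passed for 4 of 9 genes, compared with 35.6% of all genes, and 0 passed 2-fold in addition, compared with 10.3%. The effect was -0.55 ± 0.15 for *Cdc20* (adjusted p = 0.00472), -0.45 ± 0.11 for *Plk1* (adjusted p = 0.00153), -0.33 ± 0.12 for *Fbxo43* (adjusted p = 0.0248) and 0.22 ± 0.08 for *Cdk1* (adjusted p = 0.0297, edgeR). *Mos*, at 0.25 (adjusted p = 0.0578), did not pass. With the library class as a term of the model 0 genes passed, and the effects were -0.41 for *Cdc20* (adjusted p = 0.108), -0.34 for *Plk1* (0.0617), -0.30 for *Fbxo43* (0.137) and 0.13 for *Cdk1* (0.334). Without the 4 libraries that stood apart, *Cdc20* (-0.42, adjusted p = 0.0135) and *Plk1* (-0.34, adjusted p = 0.00386) passed, and *Fbxo43* (-0.20, 0.0673) and *Cdk1* (0.20, 0.0668) did not.

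How far the levels moved with library class alone could be read within 1 genotype. Among the wild-type FGOs, *Mos* was at 222 ± 22.9 CPM in the 10 libraries with at least 80% mapped reads and 259 ± 20.7 CPM in the 8 with less (SD). *Ccnb1* was at 334 ± 15.3 and 391 ± 41.3 CPM, and *Ccnb2* was at 84.3 ± 5.03 and 75.9 ± 8.60 CPM. These 3 of 9 genes passed the test between classes, compared with 27.7% of all genes, with log2 differences (at least 80% minus under 80%) of -0.21 for *Mos* (adjusted p = 0.0155), -0.22 for *Ccnb1* (adjusted p = 0.0011) and 0.16 for *Ccnb2* (adjusted p = 0.0359, edgeR). For *Ccnb1* this was larger than its difference between double mutant and wild-type FGOs. *Ccnb3*, *Cdc20*, *Fbxo43* and *Plk1* were lower in the class with fewer mapped reads by values that did not pass, and that class holds the 3 wild-type libraries that stood apart.

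**Figure D4:**
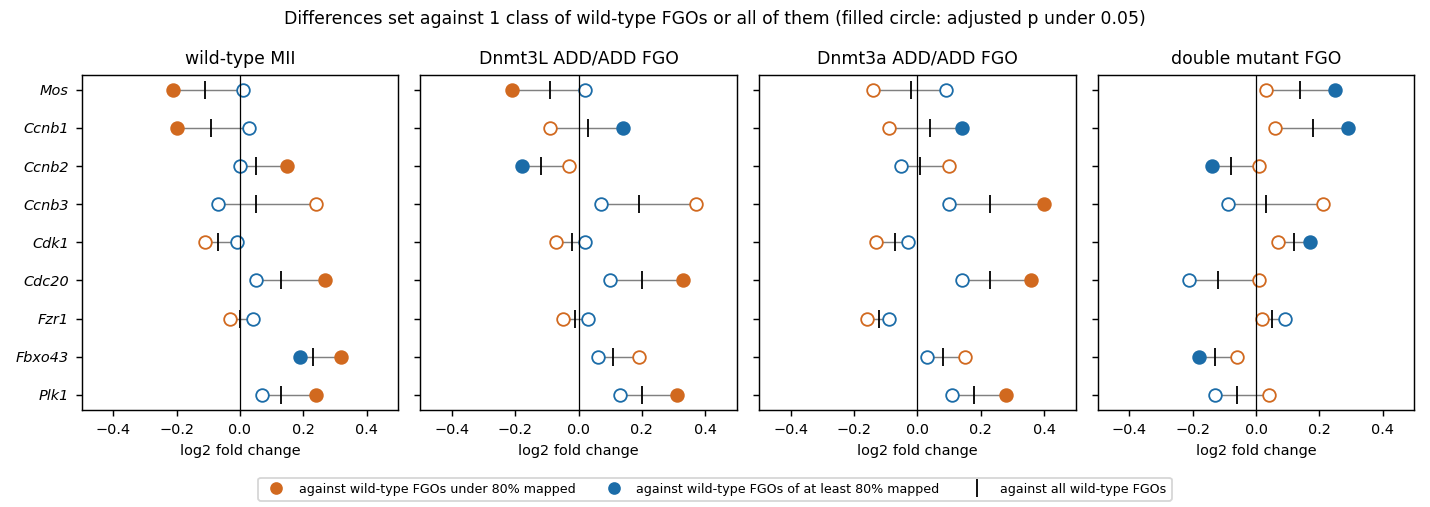
log2 fold change of the 9 genes in MII oocytes and each mutant group against wild-type FGOs of at least 80% mapped reads, against those of under 80% (circles, filled where the adjusted p was under 0.05) and against all of them (vertical mark). *Ccnb1* in the double mutant was 0.29, 0.06 and 0.18 in that order, while *Fbxo43* in MII oocytes was 0.19, 0.32 and 0.23 and passed in each.

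In the 4 libraries that stood apart, some of the 9 genes lay beyond the rest of their group. *Ccnb3* was at 50.9 to 61.5 CPM in wild-type FGO replicates 4, 5 and 6 and at 89.0 to 120 CPM in the other 15, and *Fbxo43* was at 155 to 162 CPM compared with 186 to 256. *Plk1* was at 198 to 205 CPM compared with 215 to 291. Double mutant replicate 4 showed the same order, with *Ccnb3* at 62.1, *Fbxo43* at 145 and *Plk1* at 192 CPM, each below the other 7. *Mos* and *Cdk1* were not low in these libraries, with *Mos* at 235 to 259 and *Cdk1* at 86.6 to 97.7 CPM in the 3 wild-type FGOs. The granulosa and cumulus marker sum in the 4 libraries was 156 to 239 CPM and the oocyte marker sum was 13700 to 15500 CPM, and the part of either in these values was not tested.

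The balance of components that compete or pair was examined as log2 ratios within each oocyte, using exact permutation tests, or 100000 resamples for the MII oocytes. None of the 12 ratios tested over all libraries passed the Benjamini-Hochberg adjustment. The ratio of *Ccnb2* to *Ccnb1* had a mean log2 of -2.41 ± 0.15 in double mutant and -2.15 ± 0.24 in wild-type FGOs (SD), a difference of -0.26 with all 8 double mutant FGOs below the wild-type median (two-sided exact permutation p = 0.0106, adjusted p = 0.105). With both groups under 80% mapped reads the difference was -0.05 (adjusted p = 0.644, exact permutation). The ratio of the APC/C activators *Fzr1* to *Cdc20* was 1.11 ± 0.26 in *Dnmt3a* ADD/ADD and 1.47 ± 0.37 in wild-type FGOs, a difference of -0.37 (exact permutation p = 0.0175, adjusted p = 0.105). It was -0.16 within at least 80% mapped reads, -0.65 within under 80% and -0.24 without the libraries that stood apart. The other 10 had adjusted p-values of 0.327 to 0.791 by the same permutation tests.

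Around these 9 genes, the wider pathway was described by lists of other genes, of which the counts refer to an adjusted p of 0.05 with edgeR. In MII oocytes 16.5% of all genes were higher and 22.6% lower than in wild-type FGOs, with a median log2 change of -0.05 (2610 and 3560 genes, compared with 1614 and 4305 when total counts alone were the scaling). Of 17 APC/C subunits and E2 enzymes 4 were higher and 2 lower (median log2 change -0.00). *Anapc2*, the cullin subunit, rose by 0.17 and *Ube2d1* by 0.28 on the log2 scale, while *Ube2s*, the E2 enzyme that extends ubiquitin chains, fell by 0.31 and *Cdc27*, which encodes a core subunit, fell by 0.28. Of 9 APC/C inhibitors and spindle checkpoint genes 3 were higher and 2 lower (median 0.09). *Fbxo5*, which encodes EMI1, the relative of EMI2, rose from 108 ± 13.5 to 128 ± 10.2 CPM (log2 fold change 0.24, adjusted p = 0.00149), the checkpoint kinase gene *Ttk* rose by 0.27, and *Bub1*, another checkpoint kinase gene, fell by 0.30.

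Of 9 measured APC/C substrates 4 were higher in MII oocytes and 0 lower (median 0.14). *Aurka*, the kinase that activates PLK1, rose from 213 ± 41.3 to 266 ± 18.8 CPM (log2 fold change 0.32, adjusted p = 0.0032), and its cofactor *Bora* rose by 0.21. Of 7 genes of the MOS and MAP kinase cascade 1 was higher and 2 lower (median 0.03). *Map2k1*, the kinase directly below MOS, rose by 0.16, and *Rps6ka2* fell by 1.05 on the log2 scale from a low level of 2.95 ± 1.19 CPM, the only gene of these lists past 2-fold. Of 18 tested regulators of MPF 7 were higher and 2 lower (median 0.12). *Wee2*, the oocyte kinase that inhibits CDK1, rose from 578 ± 66.8 to 707 ± 23.7 CPM (log2 fold change 0.29, adjusted p = 3.59e-05), the activating phosphatase gene *Cdc25a* rose by 0.27, and *Wee1*, encoding the related inhibitory kinase, fell by 0.68. Of the genes named, *Cdc25a*, which acts for MPF, and *Wee2*, which acts against it, rose, while *Wee1*, which acts against it, fell. With at least 80% mapped reads in both groups, 1 APC/C gene was higher and 2 lower in MII oocytes. Inhibitor and checkpoint genes gave 1 and 1, substrates 4 and 1, the MOS and MAP kinase cascade 2 and 2, and MPF regulators 5 and 1. Over all genes 1643 were higher and 1903 lower in that setting. Without the libraries that stood apart the counts were 4 and 2, 3 and 1, 4 and 0, 1 and 2, and 6 and 2 in the same order of lists.

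In the mutants no gene of these lists passed 2-fold. In *Dnmt3L* ADD/ADD FGOs, in which 3.07% of all genes were higher and 3.06% lower, 1 of 17 APC/C genes was higher (*Anapc2*, 0.22) and 1 lower (*Ube2c*, an E2 enzyme, -0.38), 1 of 9 checkpoint genes was lower, 1 of 9 substrates was higher, and among 18 MPF regulators *Cdc25a* was higher (0.30). With class as a covariate, and without the libraries that stood apart, no checkpoint gene or substrate passed. Within at least 80% mapped reads no checkpoint gene passed and 1 substrate was higher. In *Dnmt3a* ADD/ADD FGOs, in which 8.06% of all genes were higher and 7.61% lower, 6 of 9 substrates were higher and 0 lower, with a median log2 change of 0.25 beside -0.03 over all genes. These were *Gmnn*, *Aurka*, *Aurkb*, *Nek2*, *Bora* and *Kif22*. *Bora* rose by 0.30 on the log2 scale (adjusted p = 0.000116) and *Nek2*, a centrosomal kinase gene, rose from 164 ± 15.6 to 195 ± 9.51 CPM (0.25, adjusted p = 0.00219). The number of substrates past the test was 2 with at least 80% mapped reads in both groups, 3 with under 80% in both and 5 without the libraries that stood apart, with 0 lower in each. Over all genes the numbers higher and lower were 720 and 614, 553 and 490, and 1127 and 902 in the same order of settings. In the same FGOs *Cdc25a* was higher (0.35) and *Wee1*, *Cks2*, *Ccnh* and *Arpp19* were lower among the MPF regulators, with *Mnat1* higher.

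In the double mutant, in which 5.51% of all genes were higher and 6.74% lower (866 and 1060 genes, compared with 707 and 1354 with upper quartile scaling, 134 and 276 with class as a covariate and 2075 and 1939 without the libraries that stood apart), 0 of 9 substrates were higher and 1 lower, the spindle factor gene *Tpx2* (-0.26), with a median of -0.12. *Cdk2* was higher (0.49) and *Ccnh* lower (-0.41) among the MPF regulators. *Bub1* (0.27), *Mapk3* (0.26), *Ube2s* (0.19) and *Anapc10* (0.20) were higher, and *Mad1l1* (-0.37) and *Anapc15* (-0.28) were lower. No gene of the 5 lists passed in the double mutant, in either direction, with both groups under 80% mapped reads. The same held with only the wild-type FGOs limited to that class. With class as a covariate 1 passed, a checkpoint gene that was higher. A replicate block left none either, but in FGOs it rests on wild-type replicates 1 to 8, which are the class under 80%. Over all libraries *Mad1l1*, a spindle checkpoint gene, had opposite changes in *Dnmt3a* ADD/ADD (148 ± 8.11 CPM) and double mutant FGOs (89.4 ± 11 CPM) around the wild type (115 ± 25.5 CPM). Its adjusted p was 0.0166 and 0.0223. *Mapk3*, the MAP kinase ERK1, also moved in opposite directions, with 168 ± 17.8, 238 ± 17.3 and 198 ± 25.6 CPM in the same order (adjusted p = 0.0183 and 0.0113, edgeR). The double mutant values of both genes are among the calls lost within the class.

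Over the 52 libraries *Fbxo43* and *Plk1* had the most alike patterns among the 9 genes (Pearson's r = 0.82, log2 CPM), followed by *Cdc20* and *Plk1* (r = 0.73), while *Fzr1* and *Plk1* ran in opposite directions (r = -0.64). *Mos* was most like *Ccnb1* (r = 0.62). The points share their groups, library classes and the libraries that stood apart, and the values are descriptions. Among 8315 genes searched, the nearest to *Fbxo43* were *Scyl2* (r = 0.93), *Dcp1a* and *Dyrk1a* (both r = 0.92), and the nearest to *Plk1* included *Ccp110* (r = 0.89) and *Aurka* (r = 0.88). *Aurka* was also among the nearest to *Cdc20* (r = 0.81), after *Wdr47* and *Ppan* (both r = 0.82). *Ccnb1* was most like *Mfsd14b* (r = 0.83), *Pex13* and *Papd4* (both r = 0.81), the last encoding a cytoplasmic poly(A) polymerase, and *Ccnb3* was most like *Lmo3* (r = 0.86) and *Nlgn1* (r = 0.83). The best r was lower for *Fzr1* (*Tln2*, 0.73), *Mos* (*Ninj2*, 0.71), *Cdk1* (*Eif4g2*, 0.68) and *Ccnb2* (*Trim68*, 0.61).

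Of the 9 genes, 3 overlap an exon of another gene on the opposite strand, and since the strand setting of the counting is not given in the sources used here, reads of these stretches cannot be told apart. *Cdc20* shares 53 of its 1868 exon bases with *Elovl1*, which was at a mean of 46.4 CPM, close to *Cdc20* itself. *Plk1* shares 156 bases, 7.09% of its exons, with *Gm44985* (0.0698 CPM), and *Fzr1* shares 4 with *Mfsd12* (0.392 CPM). Reads shared with processed copies of these genes elsewhere in the genome were not analysed here.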

How the data were processed

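The authors aligned paired-end reads of single-oocyte libraries (SMART-Seq) to mm10 with STAR, and deposited raw counts of reads per gene, 1 file per oocyte. The labels name HTSeq for the counting and the methods also name featureCounts. The annotation release, strand setting and treatment of reads with several positions are not given in the sources used here. The spans of all 9 genes, and 93.5% of the 47624 genes named in both, were equal to those of GENCODE on GRCm38. Embryo libraries and columns of other data types were not used here. Here the deposited counts of 52 oocytes were used unchanged, and files of 1 group were checked not to be copies of each other.

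Genes were kept by filterByExpr (minimum count 10), which left 15726 genes for the 42 FGOs and 15784 with the MII oocytes. Counts were scaled by TMM and tested with edgeR 4.0.16 (quasi-likelihood, R 4.3.3) with Benjamini-Hochberg adjustment over all genes. The study's methods name edgeR, and the quasi-likelihood test was chosen here. A gene passed at an adjusted p under 0.05, and the study's added threshold of over 2-fold is counted separately. DESeq2 1.42.0, other scalings and filters, fits of only the 2 groups, library class as a covariate, fits within a class, a replicate block and the omission of each library were alternatives. The comparison of classes within the wild type and the omission of libraries standing apart were added after seeing the data. Libraries stood apart when their median correlation with their group was below 0.96. The scripts were tested on simulated data. Log2 ratios used a pseudocount of 0.5. The 9 genes and the pathway lists were chosen with earlier results of these data known. The genes named are all 9 genes, the genes of the lists that passed, shown by examples, and up to 3 genes most like each of the 9 over genes of at least 10 CPM. All p-values are two-sided. Sequences of 30 bases were read from GENCODE transcript sequences, with an annotated transcript chosen for each gene and positions on GRCm38.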

Additional observations from a re-analysis of the deposited data

Results flagged for a closer look

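In groups of 8 or 10 oocytes, single values lay far from the rest by Dixon's test in 4 of 36 combinations of gene and group. *Dnmt3a* ADD/ADD replicate 1 had the highest *Ccnb2* (90.9 CPM) and the highest *Cdk1* (94.6 CPM) of its group. Double mutant replicate 6 had the highest *Cdk1* (106 CPM), and double mutant replicate 4, which stood apart from its group over all genes, had the lowest *Fbxo43* (145 CPM). Chance flags about 1 in 20 groups.

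For 4 of the 9 genes the effect of the *Dnmt3L* ADD allele differed between FGOs with and without the *Dnmt3a* ADD allele, by the edgeR test of the interaction. The same test passed for 35.6% of all genes. The difference was 0.22 on the log2 scale for *Cdk1*, -0.55 for *Cdc20*, -0.33 for *Fbxo43* and -0.45 for *Plk1*. None of the 4 passed with the class of mapped reads in the model.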

How the results depend on the processing

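The counts of the 9 genes past the adjusted p that moved by over 1.5 times were as follows. With total counts alone as scaling the count was 4 for MII against wild-type FGOs (*Mos* -0.17, *Ccnb1* -0.16 and *Cdk1* -0.14 lower, *Fbxo43* 0.17 higher), where the median over all genes is then -0.11, 1 for *Dnmt3L* ADD/ADD, and 6 for the double mutant against *Dnmt3a* ADD/ADD. Without the filter, which moves the median over all genes in MII to -0.36, it was 0 for the double mutant against wild type and 1 against *Dnmt3L* ADD/ADD, and with only the 2 groups fitted it was 0 and, against *Dnmt3a* ADD/ADD, 5. With class as a covariate it was 0 for the double mutant against wild type, against each single mutant and for the non-additive effect. Within at least 80% mapped reads it was 2 for *Dnmt3L* ADD/ADD. Within under 80% it was 0 for MII, for the double mutant against wild type and against *Dnmt3a* ADD/ADD. Against wild-type FGOs of at least 80% it was 2 for the *Dnmt3L* mutant, 1 for the *Dnmt3a* mutant and 5 for the double mutant, and against those under 80% it was 6, 3, 3 and 0 for MII and the same mutants. Over all genes, 3256 were higher and 4117 lower in MII against wild-type FGOs under 80%. In the same setting 1574 were higher and 1770 lower in the *Dnmt3L* mutant, and 2058 and 2319 in the *Dnmt3a* mutant. Against wild-type FGOs of at least 80%, 1277 were higher and 961 lower in the *Dnmt3a* mutant. By total counts 2994 of all genes were higher and 1896 lower in the double mutant against *Dnmt3a* ADD/ADD. With only the 2 groups fitted, 2637 were higher and 2348 lower in that comparison. Against *Dnmt3L* ADD/ADD the same settings gave 2352 and 1531, and 2376 and 2033. Without the libraries that stood apart the count of the 9 genes was 2 for the non-additive effect, beside 2264 higher and 2127 lower of all genes. Leaving out 1 library gave 1 to 2 for MII, 0 to 1 for *Dnmt3a* ADD/ADD, 0 to 1 for the double mutant, 1 to 5 against *Dnmt3a* ADD/ADD and 1 to 4 against *Dnmt3L* ADD/ADD. Smaller shifts were seen for the double mutant against *Dnmt3L* ADD/ADD (5 with total counts or only the 2 groups, 3 without the libraries apart or with the block) and against *Dnmt3a* ADD/ADD (4 without the libraries apart). The number past 2-fold was 0 in each of these. The causes were not tested.

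The labels do not say whether same-numbered oocytes of different groups share an animal or a day. Deviations of same-numbered oocytes had a median r of -0.11 to 0.05 between groups. Single pairs ran from -0.51 to 0.47 between wild-type and double mutant FGOs. With the replicate block the counts were 4 for MII, 2 for the *Dnmt3L* mutant, 3 for the *Dnmt3a* mutant, 0 in the double mutant and 7 for the non-additive effect. Over all genes the numbers higher and lower with the block were 2850 and 3779 in MII, 1477 and 1353 in the *Dnmt3L* mutant and 2048 and 2061 in the *Dnmt3a* mutant. They were 66 and 161 in the double mutant and 3478 and 3013 for the non-additive effect. The block reversed *Ccnb1* in both single mutants (-0.08 each), *Ccnb2* (0.01), *Cdc20* (0.02) and *Plk1* (0.04) in the double mutant, and *Ccnb2* in the non-additive effect (-0.07).

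Of the log2 ratios, within at least 80% mapped reads *Ccnb2* to *Ccnb1* passed in *Dnmt3L* ADD/ADD (-0.32, adjusted p = 0.0015) and *Dnmt3a* ADD/ADD (-0.19, adjusted p = 0.0015, exact permutation), while *Ccnb3* to *Ccnb1* turned to -0.01 in MII, -0.08 in *Dnmt3L* ADD/ADD and -0.05 in *Dnmt3a* ADD/ADD and *Fzr1* to *Cdc20* to 0.06 in MII. Within under 80%, *Ccnb2* to *Ccnb1* turned to 0.19 in *Dnmt3a* ADD/ADD and *Ccnb3* to *Ccnb1* to 0.18 in the double mutant. The double mutant's *Ccnb2* to *Ccnb1* difference ranged from -0.30 to -0.24 without 1 library, and passed without wild-type replicate 8.

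Of 810 log2 fold changes of single genes under settings other than leaving out 1 library at a time, 48 turned sign, those of the block among them, with adjusted p-values of at least 0.248 under those settings. Of these, *Mos* in the double mutant against *Dnmt3L* ADD/ADD had passed over all libraries. In MII they were, against wild-type FGOs of at least 80%, *Mos* 0.01, *Ccnb1* 0.03 and *Ccnb3* -0.07, within at least 80% *Ccnb2* -0.01, *Ccnb3* -0.02 and *Cdc20* -0.01, by total counts *Ccnb2* -0.02 and *Ccnb3* -0.01, and without the libraries apart *Ccnb3* -0.07. In *Dnmt3L* ADD/ADD *Mos* was 0.01 to 0.02, *Cdk1* 0.01 to 0.02 and *Fzr1* 0.02 to 0.03 in class settings, *Fzr1* 0.03 without the libraries apart, and *Ccnb1* -0.09 against wild-type FGOs under 80%. In *Dnmt3a* ADD/ADD *Mos* was 0.05 and 0.09, *Ccnb1* -0.06 and -0.09, *Ccnb2* -0.07 and -0.05 and *Fbxo43* -0.05 in class settings, and *Ccnb2* -0.02 by total counts. In the double mutant *Ccnb2* was 0.01, *Ccnb3* -0.09, *Cdc20* 0.01 and *Plk1* 0.03 and 0.04 in class settings, and *Ccnb3* -0.01 without the libraries apart. Against *Dnmt3a* ADD/ADD *Mos* was -0.03 within under 80%. With class as a covariate *Mos* was -0.01, *Ccnb1* -0.02 and *Ccnb3* 0.04 against *Dnmt3L* ADD/ADD, and *Mos* -0.01 and *Ccnb1* -0.08 in the non-additive effect. Between the single mutants *Mos* was -0.03 and -0.05 and *Plk1* 0.02 in class settings. Leaving out 1 library spanned 0 for *Fzr1* in *Dnmt3L* ADD/ADD (-0.06 to 0.02), for *Mos* (-0.06 to 0.01) and *Ccnb2* (-0.02 to 0.02) in *Dnmt3a* ADD/ADD, for *Ccnb3* in the double mutant (-0.01 to 0.11), and between single mutants for *Plk1* (-0.06 to 0.01), *Ccnb3* (-0.03 to 0.08) and *Cdc20* (-0.01 to 0.07).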
